A study of Homo sapiens with 4 samples.

Results

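RAB GTPases are the largest family of small GTPases and mark the membranes between which vesicles travel. The genes described here were taken by name and biotype: every protein-coding gene whose symbol is RAB followed by a number and, where present, a letter. This gave 58 genes of the 25122 in the table, of which 15429 were protein-coding. No measured value entered that naming rule, but the family itself was chosen from results of the single comparison reported here, so the counts and medians over the family below are descriptions of these libraries and are not evidence that the family stands apart. The data came from mRNA sequencing of Jurkat, a long-established cell line from a human T-cell acute lymphoblastic leukaemia, with 2 libraries carrying a control short hairpin RNA (shcontrol) and 2 carrying a hairpin against BDH1 (shBDH1). BDH1 is the mitochondrial enzyme that interconverts the ketone bodies acetoacetate and 3-hydroxybutyrate. Both groups were labelled wild type in genotype, and no drug or other agent was named for either. The sources used here do not give the hairpin sequences, their number, the time after their introduction or whether the cells were a pool or 1 clone. The study asks about genes downstream of BDH1, MYC among them, and cells with restored MYC were not analysed here.

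A RAB protein cycles between a GDP-bound form held in the cytosol and a GTP-bound form on a membrane. Exchange factors load it with GTP, effectors such as tethers and motor adaptors bind the GTP form, and GTPase-activating proteins, most of them with a TBC domain, end the signal. GDP dissociation inhibitors then extract the protein, which is anchored to membranes by geranylgeranyl groups on cysteines at its carboxyl end. In T cells these proteins carry receptors through recycling endosomes to the contact with the target cell, and in cytotoxic lymphocytes they dock lytic granules at the plasma membrane.

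The coding ends show how alike and how different the members are at the place where the lipid is attached. Below, the last 5 codons before the stop codon are written 5′ to 3′ from the principal transcript in GENCODE 29, for pairs of close relatives and for members with the largest differences, and capitals mark the cysteine codons.
RAB31: agccgccggTGCTGT
RAB3B: cagaacTGCtcaTGC
RAB3D: agcagcTGCagcTGC
RAB27A: ggggcaTGTggcTGT
RAB27B: aagaaaTGTatcTGC
RAB26: tccTGCTGCcgccct
RAB37: TGCTGCtccttcatg
RAB44: ttcggcTGTTGCtcc
RAB1A: ggtggaggtTGCTGC
RAB1B: ggcggtggcTGTTGC
RAB39B: aggagaTGTttgTGC
RAB8A: cgaTGTgttcttctg
RAB8B: cgtTGCtcgctactt
RAB18: tatTGCtctgtgtta
RAB28: atcTGTtcagtacag
RAB6C: cctgtctcgtggagg
Within these 5 codons, 46 of the 58 members had a pair of cysteine codons, not always adjacent or at the very end. A single one was found in 10, and RAB6C and RAB6D had none. RAB8A, RAB8B, RAB18 and RAB28 were among those with 1. The coding sequences ran from 194 to 1021 codons with a median of 216. RAB44, which carries a long amino-terminal extension, was the longest, and the next, RAB36, had 333 codons. The reads were 150 bases long, and apart from the RAB6 genes no pair of same-numbered members shared a transcript stretch longer than 55 bases. RAB6A shared 164 bases with RAB6C and 160 with RAB6D, and RAB6C shared 398 with RAB6D, so reads could be split among those genes and their values are uncertain.

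The hairpin's target was checked first. BDH1 stood at 1725 and 1911 normalized read counts in shcontrol and at 1221 and 1412 in shBDH1 (limma log2 fold change -0.47, SE 0.08, adjusted p = 1.5e-05), so the message was lowered and not lost. Depth was even, from 28681511 to 29453383 reads in genes per library. A value below is a read count divided by the library's size factor, and a fold change is the difference of log2(value + 1), shBDH1 minus shcontrol, tested with limma over all 19301 genes that averaged at least 10. A gene is called higher or lower when its Benjamini-Hochberg adjusted p is under 0.05. The labels do not say whether the 2 libraries of each hairpin were separate cultures. The p-values measure only spread between such libraries, drawn mostly from all tested genes together (2 residual and 25.8 prior degrees of freedom). That spread may be technical. T-cell markers were present in both groups: all 16 T-cell and T-cell leukaemia markers were measured, 10 were higher and 1, CD3G, was lower in shBDH1, and their summed value went from 74726 and 74709 in shcontrol to 89476 and 89885. More genes were at 0 in shcontrol, 1601 and 1644, than in shBDH1, 970 and 1067; no RAB gene was at 0 in all 4 libraries. In bulk RNA, fewer cells of a type and less RNA per cell cannot be told apart.

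Of the 58 RAB genes, 47 averaged at least 10 and were tested. In shBDH1, 23 were higher, 7 were lower and 17 did not pass. Among the 13510 protein-coding genes tested, 48.9% were called, 24.2% higher and 24.7% lower. Among all genes tested, 41.1% were called, 20.3% higher and 20.8% lower, against 63.8% of these members, 48.9% higher and 14.9% lower. Their median log2 fold change was 0.25, against -0.01 over all genes tested. In 37 of the 47 members, 30 of them higher, every shBDH1 library lay on the same side of both shcontrol libraries, against 69.0% of all genes tested. A log2 difference of at least 0.5 with groups apart was found for 14 higher members and 1 lower member, where the background was 10.7% higher and 6.98% lower of all genes. The remaining calls, 9 higher and 6 lower, were smaller than that. The family's level matters for such counts: among members averaging at least 1000, 12 of 21 were higher and 4 lower (57.1% and 19.0%), where 26.2% and 34.7% of all genes at that level were called. Over 15 other ways of fitting, 18 to 27 members were higher and 6 or 7 lower, and 23 of the 30 called members passed in every one.

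**Figure D1:**
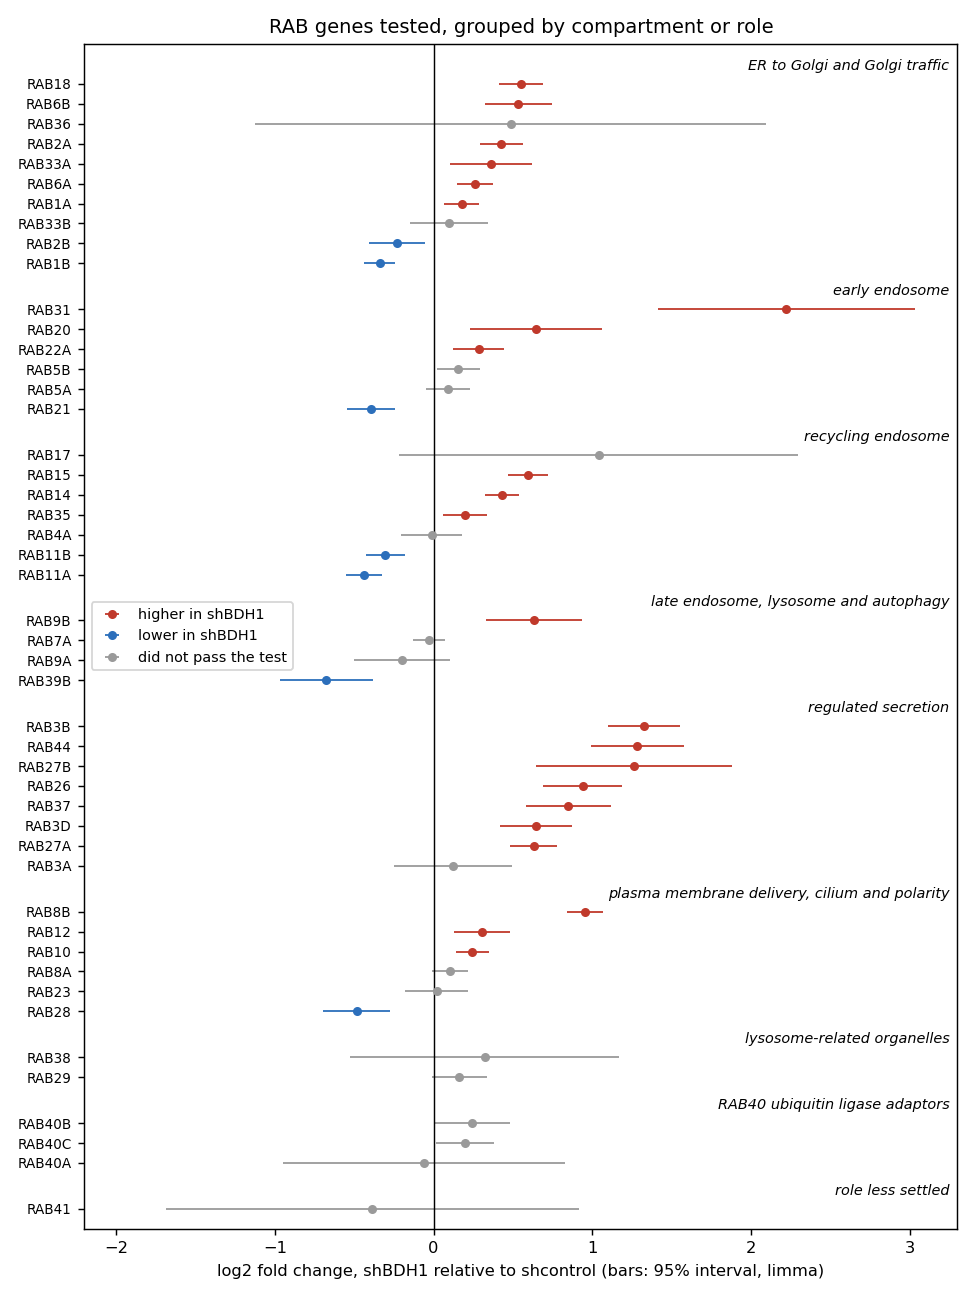
Log2 fold change (x axis, shBDH1 relative to shcontrol) of each of the 47 tested RAB genes, grouped by the compartment or role they are known for; points are limma estimates over 2 against 2 libraries and bars their 95% intervals. In regulated secretion 7 of 8 genes are red and none is blue, the top 3 groups, late endosome and plasma membrane hold both colours, and the last 3 groups hold no call.

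As a fraction of all reads in genes, the 58 members took 0.212% and 0.215% with the control hairpin, against 0.245% and 0.249% with the BDH1 hairpin. The most abundant members took a smaller part of the family in shBDH1. Divided by exon length in kilobases, the 3 highest members were RAB1B, RAB7A and RAB10, and together they made up 33.7% and 34.3% of the family's per-kilobase total in shcontrol and 29.2% in each shBDH1 library. RAB7A, which drives fusion of late endosomes with lysosomes, did not pass the test: 5742 and 6113 in shcontrol, 5586 and 6045 in shBDH1, a log2 fold change of -0.03 (95% interval -0.13 to 0.07, limma adjusted p = 0.68). RAB10, which delivers vesicles to the plasma membrane, was higher, 3568 and 3669 against 4243 and 4335 (log2 fold change 0.25, SE 0.05, limma adjusted p = 0.00023). RAB1B is described with the Golgi genes.

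Members known for regulated secretion, the release of stored granules and vesicles on a signal, were nearly all higher in shBDH1. Of 9 members 8 were tested, 7 were higher and none lower, with a median log2 fold change of 0.89. Over all genes tested, 20.3% were higher and 20.8% lower. The members' counts were the same in each of the 15 alternatives, which reuse the same 4 libraries. The role lists were drawn up with earlier results of these data known. The part of these members in the family's per-kilobase total went from 4.12% and 4.11% to 6.48% and 6.36%. RAB3B, which acts in docking of secretory vesicles, had 355 and 391 normalized read counts in shcontrol and 879 and 996 in shBDH1, a 2.51-fold higher mean (log2 fold change 1.32, SE 0.11, limma adjusted p = 7.4e-11). RAB44, a large RAB described in mast cell granule release, had 214 and 215 in shcontrol and 557 and 490 in shBDH1 (log2 fold change 1.28, SE 0.14). In both genes the lower shBDH1 library was above both shcontrol libraries by more than any gap within a group.

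RAB27A docks lytic granules in cytotoxic lymphocytes and is the gene lost in Griscelli syndrome with immunodeficiency. It had 1198 and 1160 in shcontrol and 1882 and 1774 in shBDH1 (log2 fold change 0.63, SE 0.07, limma adjusted p = 3.6e-08). Its close relative RAB27B, known in platelets and in exosome release, was far scarcer, 56.5 and 41.9 against 125 and 112 (log2 fold change 1.26, SE 0.30, limma adjusted p = 0.0012). Per kilobase, RAB27B was between 2.65% and 4.76% of the pair in every library. RAB26, which acts in secretory granule maturation, had 348 and 354 in shcontrol and 616 and 736 in shBDH1, a log2 fold change of 0.94 (SE 0.12). RAB37, found on secretory granules, had 293 and 319 against 593 and 512 (log2 fold change 0.85, SE 0.13). RAB3D, a granule RAB of exocrine and mast cells, had 448 and 436 against 726 and 658 (log2 fold change 0.64, SE 0.11). In all of these the groups were apart.

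The exceptions were RAB3A and RAB3C, both best known from synaptic vesicles. RAB3A did not pass, with 187 and 212 in shcontrol and 207 and 226 in shBDH1, so its groups overlapped (log2 fold change 0.12, 95% interval -0.25 to 0.49, limma adjusted p = 0.62). RAB3C was at 0 in 3 libraries and at 6.03 in shBDH1 replicate 2, and was not tested.

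Some markers of cytotoxic and granule-bearing cells were higher in shBDH1 too, as were some markers of other cell types. Among all genes tested, 20.3% were higher and 20.8% lower. Among those averaging under 100, it was 11.8% and 3.5%. Of the 7 natural killer and cytotoxic markers 6 were tested, and 4 were higher (PRF1, GZMA, NKG7 and NCAM1). None was called lower, although the lowest log2 fold change was -0.70. The list's sum went from 220 and 194 to 807 and 781. Of the mast cell and basophil markers in the table, HDC, which makes histamine, went from 31.8 and 20.4 to 294 and 416 and passed the test. KIT did not pass, and the proteases CPA3 and TPSB2 were at 0 in 3 of 4 libraries and at 1.01 in shBDH1 replicate 2. Of the neuronal and melanocytic markers 1 of 5 tested was higher, SYT1 (49.3 and 41.9 against 111 and 107). The sums for the B-cell list (220 in both shcontrol libraries, 686 and 666 in shBDH1, with CD79A higher), the myeloid list (81.1 and 62.3, then 129 and 116, with CD33 higher) and the fibroblast and epithelial list (718 and 732, then 1031 and 922, with COL1A1 and KRT8 higher) were also above shcontrol. The megakaryocyte marker ITGA2B did not pass (65.7 and 82.8, then 61.9 and 68.4). The part of these genes in the RAB values was not tested.

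**Figure D2:**
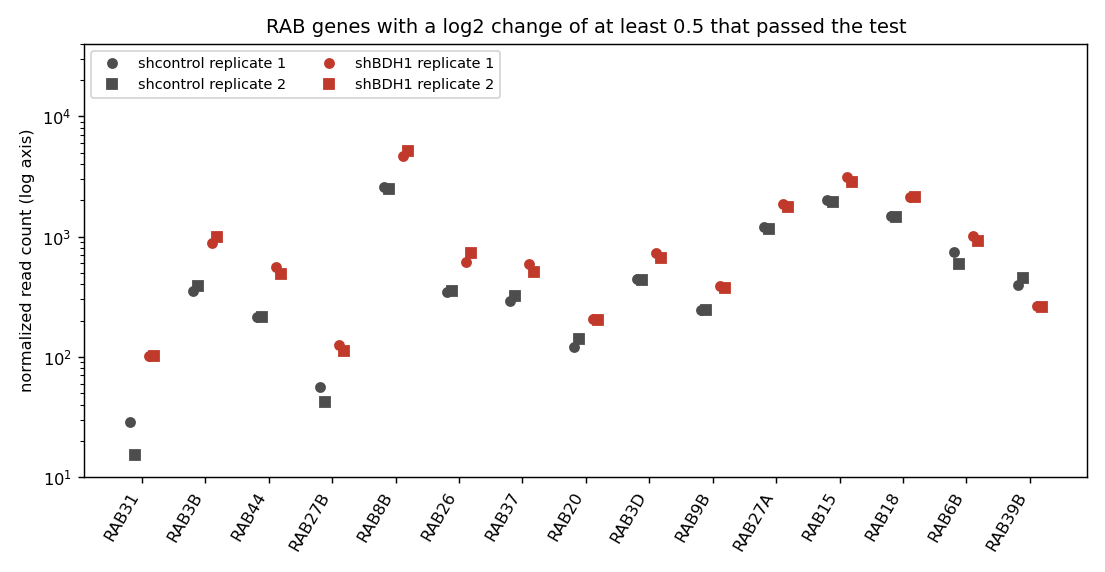
Normalized read count (log axis) of the 15 RAB genes that passed the test with a log2 difference of at least 0.5 and groups apart, in each of the 4 libraries; circles are replicate 1 and squares replicate 2. RAB39B alone lies lower in shBDH1, and RAB31 and RAB27B are the 2 genes under 130 in every library.

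Early endosome members differed among themselves: of 6 tested, 3 were higher and 1 was lower, with a median log2 fold change of 0.22. RAB31, which carries cargo between the trans-Golgi network and endosomes, had the largest difference of the family. It went from 28.8 and 15.3 to 101 and 103, a 4.62-fold higher mean (log2 fold change 2.22, SE 0.39, 95% interval 1.41 to 3.03, limma adjusted p = 3.8e-05). Both shBDH1 values were close to each other while the shcontrol values were further apart, and the gene was low throughout: 3.95 per kilobase in shcontrol and 18.2 in shBDH1. RAB20, a RAB of phagosome maturation, had 120 and 141 against 205 and 203 (log2 fold change 0.65, SE 0.20, limma adjusted p = 0.012). That call was lost without shcontrol replicate 1 (limma adjusted p = 0.083), without shBDH1 replicate 1 (0.072) and without shBDH1 replicate 2 (0.062). RAB22A, a relative of RAB31 that sorts cargo for recycling, was 0.28 higher on the log2 scale, and its call was lost without shBDH1 replicate 1 (limma adjusted p = 0.13). RAB21, which takes up integrins, was lower by contrast, 1769 and 1959 against 1486 and 1348 (log2 fold change -0.40, SE 0.07).

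Of the RAB5 genes, the master regulators of early endosome fusion, RAB5A and RAB5B did not pass. RAB5C was not among the 58 genes, so nothing is given for it. RAB5A had 1659 and 1600 in shcontrol and 1706 and 1767 in shBDH1 (log2 fold change 0.09, limma adjusted p = 0.31). RAB5B was just outside the threshold, 2223 and 2010 against 2280 and 2437 (log2 fold change 0.16, 95% interval 0.02 to 0.29, limma adjusted p = 0.054), and was called higher under 10 of the 15 alternatives. Per kilobase RAB5A was 56.5% and 58.1% of the pair in shcontrol and 56.6% and 55.8% in shBDH1.

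Among recycling endosome members, 3 of 7 tested were higher and 2 lower, with a median of 0.20. That was 42.9% and 28.6%, against 20.3% and 20.8% of all genes tested. The lower members were the RAB11 genes, which return receptors to the cell surface. RAB11A had 3444 and 3605 in shcontrol and 2626 and 2566 in shBDH1 (log2 fold change -0.44, SE 0.06, limma adjusted p = 1.9e-07). RAB11B had 2817 and 3014 against 2348 and 2375 (log2 fold change -0.30, SE 0.06). For both, each shBDH1 library was below each shcontrol library. The higher ones act on neighbouring routes. RAB15, an endosomal RAB that slows recycling, had 2010 and 1934 against 3126 and 2836 (log2 fold change 0.59, SE 0.06, limma adjusted p = 6.8e-09). RAB14, which links the Golgi to recycling endosomes, had 3091 and 3224 against 4260 and 4253 (log2 fold change 0.43, SE 0.05). RAB35, a fast recycling RAB that meets the RAB11 route at the immune synapse, was 0.20 higher on the log2 scale, a call lost without shcontrol replicate 2 (limma adjusted p = 0.12) and without shBDH1 replicate 2 (0.19). RAB4A, the classic RAB of fast recycling, was at -0.01 and RAB17, an epithelial RAB, at 1.04 with values of at most 29.5, and neither passed. RAB25, a RAB11 relative of epithelia, averaged 9.94 and fell outside the test, with 13.3 and 18.4 in shcontrol and 1.97 and 6.03 in shBDH1.

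Members of the Golgi and of the route from the endoplasmic reticulum made up the largest group, with 10 of 12 tested, 6 higher, 2 lower and a median of 0.31. RAB18, which sits on the endoplasmic reticulum and lipid droplets, had 1471 and 1449 in shcontrol and 2153 and 2126 in shBDH1 (log2 fold change 0.55, SE 0.07, limma adjusted p = 8.8e-08). RAB6B, a form of the retrograde Golgi RAB best known from neurons, had 751 and 593 against 1007 and 927 (log2 fold change 0.53, SE 0.10). Its relative RAB6A, the general form, had 2900 and 2971 against 3424 and 3610 (log2 fold change 0.26, SE 0.05). RAB33A, a Golgi RAB of brain and lymphocytes, was 0.36 higher on the log2 scale, a call lost with DESeq2 (adjusted p = 0.060) and without any 1 of the 4 libraries (limma adjusted p from 0.060 to 0.090). RAB33B, which meets the autophagy machinery at the Golgi, did not pass, at 0.10 on the log2 scale, nor did RAB36, which averaged 10.6.

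The RAB1 and RAB2 pairs each held a higher and a lower gene. RAB1B, which directs traffic from the endoplasmic reticulum to the Golgi, had 5279 and 5403 in shcontrol and 4317 and 4127 in shBDH1 (log2 fold change -0.34, SE 0.05, limma adjusted p = 1.3e-06). RAB1A, with the same task, had 3249 and 3223 against 3522 and 3800 (log2 fold change 0.18, SE 0.05, limma adjusted p = 0.0096), a call lost without shcontrol replicate 2 (limma adjusted p = 0.058) and without shBDH1 replicate 2 (0.12). RAB2A, a RAB of the intermediate compartment and Golgi, had 1593 and 1690 against 2198 and 2216 (log2 fold change 0.43, SE 0.07). RAB2B was lower, 1019 and 1035 against 900 and 853 (log2 fold change -0.23, SE 0.09, limma adjusted p = 0.035). That call was lost without any 1 of the 4 libraries (limma adjusted p from 0.050 to 0.16), with DESeq2 (0.11), with no filter on low values (0.052) and with 2 of the other scalings of edgeR (0.064 and 0.096), and its direction did not change.

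Members that act at the plasma membrane, in the cilium or in polarity gave 3 higher and 1 lower of 6 tested, with a median of 0.17. RAB8B, which sends vesicles from the Golgi to the surface, had the smallest p of the family: 2605 and 2485 in shcontrol, 4724 and 5160 in shBDH1, a 1.94-fold higher mean (log2 fold change 0.96, SE 0.06, limma adjusted p = 2.6e-14). Its relative RAB8A, which also builds the cilium, had 2773 and 2887 against 3028 and 3051 and did not pass (log2 fold change 0.10, 95% interval -0.01 to 0.22, limma adjusted p = 0.14), except with upper-quartile scaling in edgeR (adjusted p = 0.032). RAB28, a ciliary RAB, was lower, 803 and 938 against 654 and 589 (log2 fold change -0.48, SE 0.10). RAB12, which acts in transferrin receptor breakdown and is a substrate of the kinase LRRK2, was 0.30 higher on the log2 scale. That call was lost without shcontrol replicate 2 (limma adjusted p = 0.13) and without shBDH1 replicate 2 (0.067). RAB23, a brake on Hedgehog signalling, stood at 0.02 on the log2 scale and did not pass.

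Of 9 late endosome, lysosome and autophagy members 5 averaged under 10. Of the 4 tested 1 was higher and 1 lower (25.0% each, against 20.3% and 20.8% of all genes tested). RAB39B, a neuronal RAB altered in an X-linked intellectual disability, was the single member lower by at least 0.5: 393 and 451 in shcontrol and 265 and 260 in shBDH1 (log2 fold change -0.68, SE 0.14, limma adjusted p = 0.00031). RAB39A was not tested, with values of at most 6.03. RAB9B, of the route from late endosome to Golgi, was higher, 243 and 245 against 387 and 372 (log2 fold change 0.63, SE 0.15, limma adjusted p = 0.00086). Its general counterpart RAB9A had 338 and 399 against 289 and 354, and its groups overlapped (log2 fold change -0.20, 95% interval -0.50 to 0.10, limma adjusted p = 0.30). RAB7B, next to RAB7A, was at 0 in replicate 2 of both groups and never above 7.86.

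RAB29 and RAB38, of lysosome-related organelles, did not pass (0.16 and 0.32 on the log2 scale), nor did the 3 RAB40 genes, adaptors of a ubiquitin ligase (from -0.06 to 0.24), nor RAB41 (-0.38). Both RAB40B and RAB40C were called higher with upper-quartile scaling, RAB40C also with scaling to library totals alone and RAB40B also without shBDH1 replicate 1. RAB29 was called higher without shcontrol replicate 1, and RAB17 without shcontrol replicate 2. The 11 untested members were RAB3C, RAB6C, RAB6D, RAB7B, RAB19, RAB24, RAB25, RAB30, RAB34, RAB39A and RAB42. Their means ran from 1.51 to 9.94, with no single value above 18.4. RAB24 shares 926 exon bases with MXD3 on its own strand, so its low values are uncertain. MXD3 had 5485 and 5444 in shcontrol and 5511 and 5879 in shBDH1. Just inside the limit of 10 were RAB36 (mean 10.6), RAB41 (18.0) and RAB17 (22.8), and just outside it RAB25 (9.94), RAB42 (9.61) and RAB19 (7.83).

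Close relatives with the same number differ mostly in the tissue where they are abundant, and within several such families the composition was different between the groups. RAB8B was 48.4% and 46.2% of the per-kilobase RAB8 total in shcontrol and 60.9% and 62.8% in shBDH1. By these shares the order of RAB8A and RAB8B was opposite in the groups, but the RAB8A value is uncertain. RAB8A shares 1960 exon bases with AC008894.2 on the opposite strand (log2 fold change 0.05, no call). It also shares 207 with HSH2D on its own strand (0.81, higher). RAB2A was 51.0% of the RAB2 genes in the higher shcontrol library and then 60.9% and 62.4%. RAB1A was 27.2% and 26.6% of the RAB1 genes and then 33.1% and 35.8%. RAB9B was 28.9% and 25.8% of the RAB9 genes and then 43.1% and 37.3%, and RAB3B was 11.9% and 12.4% of the RAB3 genes and then 19.7% and 22.1%. In these 5 families the groups were apart. They were also apart for the shares of RAB11A, RAB27B, RAB33A and RAB39A. For every gene of the RAB5, RAB6, RAB7 and RAB40 families they overlapped. RAB3A was 44.3% and 47.4% of the RAB3 genes in shcontrol and 32.9% and 35.4% in shBDH1, although its own count did not pass the test. RAB11A, in a pair where both genes were lower, was 34.7% and 34.2% and then 32.7% and 32.0%. The shares are given without a test: an exact permutation of 2 against 2 libraries gives a p of at least 0.333 and so cannot pass a threshold of 0.05.

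**Figure D3:**
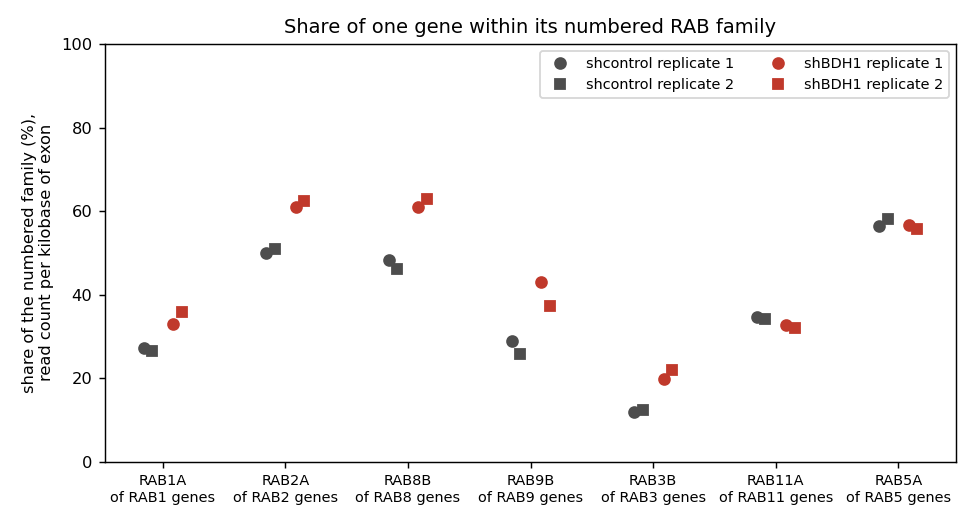
Share (%) that 1 gene takes of the per-kilobase read count of the same-numbered RAB genes among the 58 members, in each of the 4 libraries. Circles are replicate 1 and squares replicate 2. RAB8B goes from under 50% in shcontrol to over 60% in shBDH1, while RAB5A overlaps between the groups.

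By the number of cysteine codons at the coding end, 37 tested members had a pair, of which 21 were higher and 6 lower with a median of 0.28. All 10 members with a single codon were tested, 2 were higher (RAB8B and RAB18) and 1 was lower (RAB28), with a median of 0.15. Of all genes tested, 20.3% were higher and 20.8% lower. The difference between these kinds of coding end was not tested.

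Relatives outside the RAB family were counted from the same fit. Of 8 RAB-like and large RAB proteins tested, 6 were lower and none higher (median -0.23). Among all genes tested, 20.8% were lower and 20.3% higher. With upper-quartile scaling in edgeR, 5 of this list were lower and 1 higher. RASEF went the other way at low values, 2.05 and 6.13 against 14.7 and 20.1. It did not pass (log2 fold change 1.97, limma adjusted p = 0.078). RABL2B, a ciliary protein, had 976 and 913 against 563 and 477 (log2 fold change -0.86, SE 0.10). Its near-copy RABL2A had 559 and 560 against 316 and 352 (log2 fold change -0.74, SE 0.13). The stretch that RABL2A and RABL2B share was not measured, so reads could be split between them and both values are uncertain. CRACR2A, which regulates calcium entry in T cells and has a form with a RAB domain, had 3171 and 3121 against 2716 and 2666 (log2 fold change -0.23, SE 0.06), and RABL6 was lower too (-0.19, SE 0.05).

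The genes of the machinery that serves RAB proteins were called about as often in each direction. Of 168 such genes tested, 37 were higher and 41 lower (22.0% and 24.4%), with a median of 0.00. Those shares were near the ones of all genes tested (20.3% and 20.8%) and of protein-coding genes tested (24.2% and 24.7%). With upper-quartile scaling in edgeR the split was 46 higher and 32 lower. RABGGTA and RABGGTB, the subunits of the enzyme that adds the geranylgeranyl groups, were lower, by -0.32 (SE 0.10) and -0.27 (SE 0.05) on the log2 scale.

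Among 56 exchange factors, 11 were higher and 17 lower (19.6% and 30.4%, median -0.05), against 20.3% and 20.8% of all genes tested. With upper-quartile scaling it was 13 and 13. DENND5A, which acts on RAB39, had 554 and 632 against 1270 and 1339 (log2 fold change 1.14, SE 0.09), while RAB39B itself was lower. DENND3, the exchange factor of RAB12, was also higher (0.60, SE 0.07). DENND1A, which acts on RAB35, was lower (-0.69, SE 0.07), as was HPS4 (-0.64, SE 0.06), part of the exchange complex for RAB38. The TBC GTPase-activating proteins gave 7 higher and 10 lower of 37 (18.9% and 27.0%, median -0.01), against the same shares of all genes tested. TBC1D17, which acts on RAB8, had 979 and 887 against 529 and 457 (log2 fold change -0.92, SE 0.11). TBC1D14, an autophagy regulator that binds RAB11 (-0.44, SE 0.06), and TBC1D9B (-0.32, SE 0.05) were lower too, while TBC1D5, which acts on RAB7 with retromer, was higher (0.34, SE 0.05).

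Of 68 effectors and tethers 18 were higher and 12 lower (26.5% and 17.6%, median 0.07), against 20.3% and 20.8% of all genes tested. With upper-quartile scaling it was 21 and 7. UNC13D, the effector through which RAB27A primes lytic granules, had 2579 and 2510 against 3573 and 3534 (log2 fold change 0.48, SE 0.05). EHBP1L1, a RAB8 effector (0.64, SE 0.06), and MICAL1, an actin-oxidising enzyme that binds RABs of the RAB8 kind (0.54, SE 0.06), were higher as well. PLEKHM2, which joins lysosomes to kinesin, was lower, 3676 and 3521 against 1671 and 1673 (log2 fold change -1.10, SE 0.06).

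**Figure D4:**
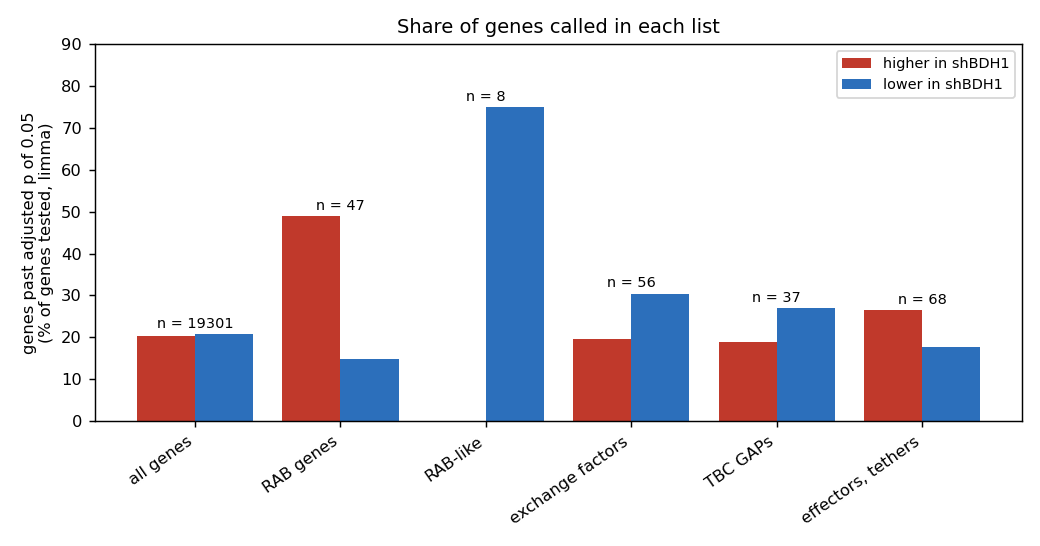
Percentage of the tested genes of each list that were called higher (red) or lower (blue) in shBDH1 by limma at an adjusted p of 0.05, with the number tested above each pair of bars; bars start at 0. The RAB genes (48.9% higher) have a taller red bar than blue one, all genes have bars of about equal height, and the RAB-like genes have no red bar.

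Promoters were read for the 45 members that matched by symbol in a RefSeq table on GRCh38.p14, each a window of 300 bases that ends 50 bases after the start site. The searched letters were the E-box CACGTG, which MYC and related factors bind, the AP-1 motif TGACTCA and the CRE motif TGACGTCA, on both strands. The E-box was in 6 of 45 members (13.3%), against 7.43% of all 27305 promoters of that length and 9.74% of those of tested genes. It was in 1 of 14 higher members, RAB31, in 1 of 6 lower members, RAB21, and in 3 of 14 without a call. The AP-1 motif was in 3 members (6.67%, against 4.92% of all promoters and 3.12% of those of tested genes) and the CRE motif in 1 (2.22%, against 1.98% and 3.05%). The AP-1 match of RAB3B, shown because that gene had the second largest difference of the family, lies at chr1:51990796-51990836 in GRCh38.p14 and is written along the gene's minus strand, with the match, which is the reverse complement of the letters searched, in capitals.
RAB3B: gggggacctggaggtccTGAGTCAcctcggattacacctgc
These matches describe letters only.

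Of the members, 24 share exon bases with a gene on the opposite strand, and the sources used here give no strand setting for the counting, so their reads and those of the partner cannot be told apart there. Among the 15 members with differences of at least 0.5 this concerns RAB27A (154 bases, with PIGB), RAB27B (341, with AC098848.1), RAB37 (17, with AC016888.1), RAB3D (144, with CCDC159) and RAB6B (381, with SRPRB). The partner of RAB27B was higher as well (log2 fold change 1.40), as was that of RAB37 (0.30), that of RAB3D was lower (-0.26), and those of RAB27A and RAB6B did not pass. Of the lower members, RAB1B shares 265 bases with AP001107.1 (-0.31), RAB11B 306 with RAB11B-AS1 (-0.47) and RAB2B 124 with TOX4 (-0.23), and these 3 partners were lower too, while RAB21 shares 1431 bases with AC089984.1, which did not pass (log2 fold change -1.08, limma adjusted p = 0.35). RAB1A shares 757 bases with CEP68, which was lower (-0.35) while RAB1A was higher. Of the other higher members, RAB6A shares 425 bases with AP002770.1, which was higher (0.47), and the partners of RAB12 and RAB35 did not pass.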

How the data were processed

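Messenger RNA of 4 Jurkat libraries was sequenced as paired reads, per the labels' protocols. The submitters' processing notes name FastQC 0.11.9, HISAT2 2.2.1 and the build hg38. No source used here names the read counter, its strand setting or the annotation. The values deposited by the authors are a signal, namely read counts per gene scaled with 1 size factor for each library. Within each library they were whole multiples of a single step, to 0.01 reads, and dividing by it returned the reads (100.0% whole). In 1 library, shBDH1 replicate 2, that step (1.01) is near 1, but its values, such as 6.03 for RAB3C, are multiples of the step and not whole reads.

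Genes averaging at least 10 were fitted with limma 3.58.1 (R 4.3.3) on log2(value + 1) with a trended prior. The added 1 understates changes of low genes. The fit had 2 residual and 25.8 prior degrees of freedom. P-values were adjusted over all 19301 genes. The tools edgeR 4.0.16, DESeq2 1.42.0 and limma-voom on recovered reads, other filters and pseudocounts, the replicate block and leaving out each library were alternatives. The chi-square per degree of freedom was 3.71 and 4.98 within groups and 42.4 to 45.2 between them, so no library was counted as a copy. Member positions, exon lengths and coding sequences came from GENCODE 29 (25010 of 25122 gene IDs matched). Python 3.11.15, numpy 2.4.6, pandas 2.3.3 and matplotlib 3.10.9 were used, and the fits were checked on simulated data.

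The members and gene lists were chosen with earlier results of these data known. RAB6D was in none of the role lists and was placed among those of less settled role after the table had been read. RAB4B, RAB5C, RAB13, RAB32 and RAB43 were in the role lists but not among the 58 genes, so counts by role leave them out. Named with all library values were members that passed with groups apart and a log2 difference of at least 0.5, the 3 highest per kilobase and same-numbered relatives of both; of other lists, up to 4 genes with the smallest p. Further members given with library values (RAB2A, RAB2B, RAB5A, RAB5B, RAB11A, RAB11B, RAB14, RAB21, RAB25, RAB28) and the marker genes with values were picked after their values had been seen. Some genes and 1 list of relatives that these rules take are not reported here.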

Additional observations from a re-analysis of the deposited data

How the results depend on the processing

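Over the 15 alternatives, the count of higher RAB members ranged from 18 to 27 and that of lower ones from 6 to 7, the members' median log2 fold change from 0.22 to 0.29 and that of all genes from -0.02 to 0.04, and no member that passed changed direction. Leaving out 1 library at a time gave 18 to 23 higher and 6 lower members. The labels do not say whether equal replicate numbers share a culture. The correlation of same-numbered deviations was 0.035 over 13922 genes averaging at least 100. With 2 libraries a group this is a single correlation, so it cannot exclude a weak pairing. With the replicate block 24 members were higher and 7 lower. DESeq2 called 22 higher and 6 lower. With no filter on low values all 58 members entered, with 23 higher and 6 lower. Depth limits the low members: the median SE of the log2 fold change was 0.06 for members averaging at least 1000, 0.12 from 100 to 1000 and 0.43 under 100.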
